A study of Mus musculus with 9 samples.

Results

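Dendritic cells of mice labelled IAb-/- were compared with those of wild-type B6 mice on Affymetrix arrays. IAb-/- names the loss of I-A beta, the class II chain encoded by H2-Ab1. Of the 9 arrays of the series, 6 belong to this comparison, 3 labelled IAb-/- and 3 labelled B6, and their titles number them as experiments 1, 2 and 3, so that each experiment holds 1 array of each group. The 3 other arrays, labelled CIITA-/- for the loss of the class II transactivator, were used for the spread between arrays and as a further set of levels for single genes. All 9 hold total RNA of dendritic cells taken at day 10. No treatment, age, sex or culture condition is given in the labels. Experiment 1 used an array design of 12654 probe sets and the other experiments a design of 12488, and 9977 probe sets other than controls carry the same name in both, so each group has 1 array in a 3-array table and 2 arrays in a 6-array table. Values are shown side by side across these tables only as levels, since the tables were scaled separately, and differences were taken within an experiment.

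The labels do not tell whether arrays of the same group stand for different mice or different cultures, and the p-values therefore describe the spread among these arrays alone, which could be technical. They also do not say which part of H2-Ab1 was altered, in stem cells of which strain this was done, or how often the mice were backcrossed to B6. Gene targeting in stem cells of another strain can leave alleles of that strain in a stretch of chromosome around the targeted gene. Whether such alleles are present here was not tested.

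Class II molecules are pairs of an alpha and a beta chain that present peptides from the endosomes of dendritic cells to CD4+ T cells. The invariant chain Cd74 escorts new pairs to the endosome, and H2-DM exchanges its remnant for peptide. Without I-A beta, the I-A alpha chain encoded by H2-Aa lacks its partner, and B6 mice make no I-E pair because their H2-Ea gene is defective. CIITA acts at promoters that share a set of boxes, among them the Y box, an inverted CCAAT sequence bound by NF-Y, so its loss removes the RNA of several chains together, whereas the IAb-/- alteration concerns a gene downstream of it.

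The shared promoter element is shown here because the class II genes are the group that both alterations concern. The 150 bases before the start site of 4 class II genes, all on chromosome 17, are RefSeq sequences of build GRCm38.p6, written 5′ to 3′ along the gene. Capitals mark matches to the 6 letters of the Y box core, GATTGG, and to their reverse complement, CCAATC. Only GATTGG has the inverted CCAAT orientation of the Y box, and a CCAATC match is not named a Y box here.
H2-Aa (chr17:34287824-34287973, minus strand): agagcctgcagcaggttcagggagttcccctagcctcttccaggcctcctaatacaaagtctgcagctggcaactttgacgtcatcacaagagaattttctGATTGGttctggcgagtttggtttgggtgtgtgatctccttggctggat
H2-Eb1 (chr17:34305717-34305866, plus strand): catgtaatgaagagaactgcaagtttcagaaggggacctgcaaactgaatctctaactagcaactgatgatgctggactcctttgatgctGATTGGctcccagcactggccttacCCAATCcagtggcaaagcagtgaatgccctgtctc
H2-DMb1 (chr17:34153041-34153190, plus strand): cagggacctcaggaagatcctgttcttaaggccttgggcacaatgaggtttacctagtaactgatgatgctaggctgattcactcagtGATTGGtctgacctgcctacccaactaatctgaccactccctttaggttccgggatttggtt
H2-DMb2 (chr17:34145099-34145248, plus strand): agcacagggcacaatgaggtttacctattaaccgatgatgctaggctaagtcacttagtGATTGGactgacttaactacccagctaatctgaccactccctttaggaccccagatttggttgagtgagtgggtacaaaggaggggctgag
All 4 windows hold GATTGG, starting 49 bases before the start site in H2-Aa, 60 in H2-Eb1, 62 in H2-DMb1 and 91 in H2-DMb2, and H2-Eb1 also holds CCAATC. The 6 letters occur on either strand in 10.9% of 32851 windows of the same length before start sites. A match is a description of the sequence and does not show binding.

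The deposited intensities are on a linear scale, and 21% to 26.4% of values on an array are negative. As a noise limit, the size that 95% of the negative values do not exceed was taken, 1701 for the 6 arrays and 2203 for the 3, and a probe set is called bright where every array of a group lies above it. Among the 6 arrays, 61.5% of probe sets lay within that limit in both B6 and IAb-/-. The arrays share a trimmed mean but not the bright end: actin read 210800 on IAb-/- array 2 and 137700 on IAb-/- array 3, against 152600 to 177600 on the other 4 arrays of the table. The values of both arrays, or the differences within experiments, are given below for most genes, and for the rest only a fitted difference or a bound.

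H2-Ab1, the targeted gene, was still read on the arrays labelled IAb-/-. Its probe set gave 30749, 16070 and 9621 in experiments 1 to 3, against 44048, 17261 and 21348 in B6. The IAb-/- array was the lower in each experiment, by 0.10 to 1.15 on the log2 scale, and in experiment 2 the groups were nearly level. On the CIITA-/- arrays the same probe set read 675, 615 and 112, within the noise limit. The difference between IAb-/- and B6 over the 3 experiments was -0.59 ± 0.47 (SE, limma with the experiment as a block, n = 3 pairs), with an adjusted p of 0.92. Since the labels do not place the alteration and the files do not place the probes within the gene, this reading does not check the label, and IAb-/- is used below as the name the arrays carry.

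Of the other class II genes, H2-Aa, H2-Eb1, H2-DMa, H2-DMb1, H2-DMb2, H2-Oa and Cd74 were also read above the noise limit on every IAb-/- array by their brightest probe sets. Of 10 class II chain and loading genes tested over the 3 experiments, H2-Ab1 among them, 8 were lower and 2 higher in IAb-/-, against 3029 and 3199 of all 6241 genes. The 8 include H2-Ab1 itself, and H2-Ea and H2-Ob, which read within the noise limit. In every experiment 5 of the list were lower, H2-Ab1 again included, against 748 of all genes, and none passed the adjusted test. The median of the list was -0.23 (log2), against 0.01 over all 6241 genes tested, and it lay at -0.50, -0.12 and -0.85 in experiments 1, 2 and 3. H2-Aa, the alpha chain of the same pair, gave 65738, 46977 and 29271 in IAb-/- and 33825, 51407 and 53578 in B6. It was thus higher in experiment 1 and lower in experiments 2 and 3, and its mean difference was -0.01 ± 0.36 (SE). H2-Eb1, which encodes the I-E beta chain, gave 44914, 23521 and 13882 in IAb-/- against 49869, 26063 and 30418 in B6, lower in each experiment by 0.15, 0.15 and 1.13. Without IAb-/- array 3 the median of the list in the 6-array table was -0.15 in place of -0.53.

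The genes of the H2-DM exchange factor differed more evenly. H2-DMb2, 1 of 2 genes for its beta chain, gave 6144, 3112 and 2039 in IAb-/- and 12775, 4235 and 4541 in B6. Each IAb-/- array lay below the B6 array of its experiment, by 1.06, 0.44 and 1.16 on the log2 scale, and the fitted difference was -0.89 ± 0.19 (SE; limma, unadjusted p 0.0039, adjusted p 0.92). H2-DMb1, the neighbouring beta chain gene, was lower by 0.63, 0.18 and 0.93 (fitted -0.58 ± 0.21 SE, adjusted p 0.92). A probe set assigned to both of these genes gave 5388, 2450 and 1661 in IAb-/-, the last within the noise limit, against 10324, 3546 and 3455 in B6. H2-DMa, the alpha chain of H2-DM, was lower by 0.48, 0.03 and 0.35 (fitted -0.29 ± 0.18 SE). On CIITA-/- arrays H2-DMb2 lay within the noise limit and H2-DMb1 at 9913, 5507 and 2664, below its IAb-/- levels in every experiment.

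The remaining class II genes did not move together. Cd74, the invariant chain, gave 28200, 181665 and 118974 in IAb-/- and 14649, 138308 and 129594 in B6, higher in experiments 1 and 2 and lower in 3. H2-Oa, a chain of the H2-DO inhibitor of H2-DM, was 0.76 lower in experiment 1 and 1.00 and 0.26 higher in experiments 2 and 3. H2-Ob, H2-Ea and H2-Eb2 read within the noise limit on the B6 and IAb-/- arrays.

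**Figure D1:**
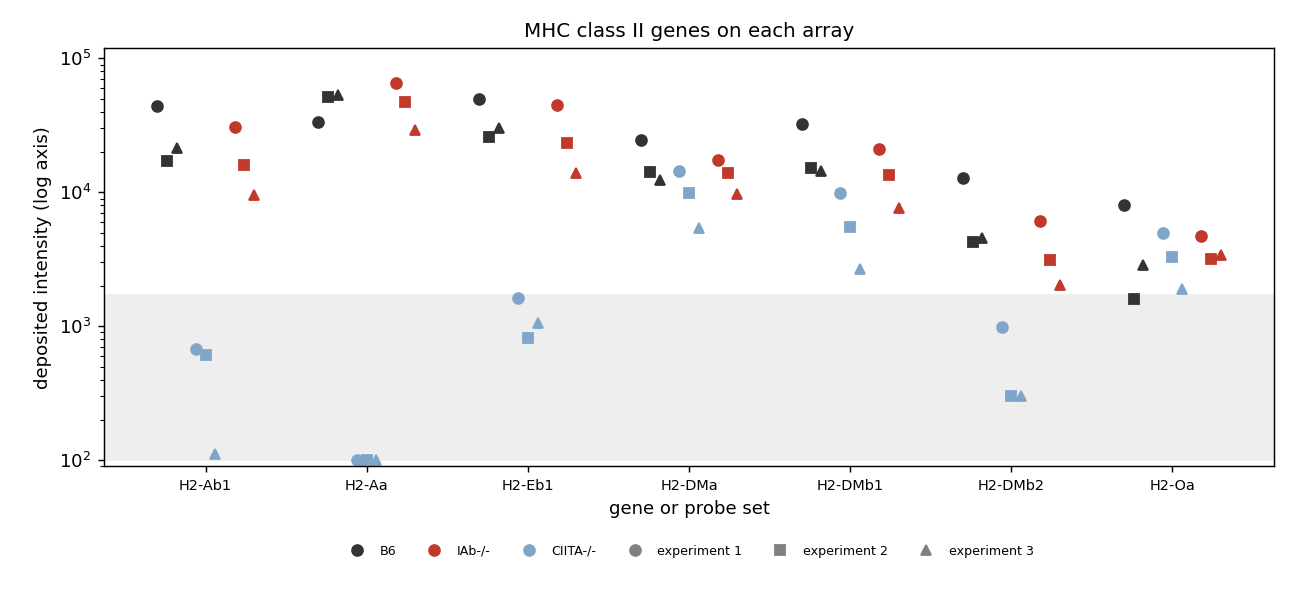
Deposited intensity (log axis) of 7 MHC class II genes on each array, by group (colour) and experiment (marker); values under 100 are drawn at 100, and the grey band ends at the noise limit of the 6-array table, 1701. The IAb-/- arrays read H2-Ab1, H2-Aa and H2-Eb1 far above the band, whereas the CIITA-/- arrays lie inside it, and experiment 1 belongs to a table scaled separately.

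Very few probe sets differed beyond the spread between arrays in the tests across all features. Of 9312 probe sets tested in the 6-array table, 1 passed an adjusted p of 0.05 (limma), which is 0.0107%, and 401 (4.31%) had an unadjusted p under 0.05. That probe set, for the zinc finger gene Zfp1, read 1211 and 1350 in B6 and below 0 in IAb-/-, within the noise limit on all 4 arrays, and it went the other way in experiment 1, at 1958 in IAb-/- and below 0 in B6. Over the 3 experiments 0 of 8145 shared probe sets passed (0%; limma with the experiment as a block), while 385 (4.73%) had an unadjusted p under 0.05, and the smallest adjusted p was 0.64. Of the 3357 bright shared probe sets, 956 (28.5%) differed in the same direction in all 3 experiments. The log2 differences of the 3357 bright shared probe sets correlated weakly between experiments, with a Pearson coefficient of 0.20 between 1 and 2, 0.04 between 1 and 3 and 0.29 between 2 and 3. These are coefficients across probe sets, which are not independent replicates.

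Of the 3357 bright shared probe sets, 14 differed by at least 0.5 on the log2 scale in the same direction in each of the 3 experiments, 0.417% of them, with 7 higher (0.209%) and 7 lower (0.209%) in IAb-/-. Just outside the limit lay Perp, whose smallest difference was 0.4992, and a second Pim1 probe set at 0.4966, and just inside lay Guca1a at 0.5083. Of the 14 probe sets, 10 lie on chromosome 17, the chromosome of H2-Ab1, which carries 191 of the bright probe sets (5.69%). On chromosome 17, 5.24% of bright probe sets passed, and on the other chromosomes 4 of 2882 passed (0.139%). This pattern was noticed after the values were seen.

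The same share was taken at other limits. At a minimum difference of 0.25 in each experiment, 72 bright probe sets passed (2.14%), 18 of them on chromosome 17 (9.42% of its bright probe sets) and 51 on the other chromosomes (1.77%). After chromosome 17, the X chromosome had the next share, 6.12% (6 of 98), and none of these 6 reached 0.5 in every experiment. An unadjusted p under 0.01 over the 3 experiments (limma) was given by 14 of 191 bright probe sets on chromosome 17 (7.33%). On all the other chromosomes it was given by 9 of 2882 (0.312%). Leaving out 1 experiment at a time, which leaves 2 experiments to satisfy, gave 42 to 65 probe sets at 0.5, of which 12 to 14 lay on chromosome 17. That was 18.5% to 33.3% of those passing, against 71.4% with all 3 experiments. On chromosome 17, 5.88% to 7.07% of bright probe sets then passed. Of all other bright probe sets, those without a chromosome included, 0.858% to 1.56% passed. With all 3 experiments these shares were 5.24% and 0.126%.

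**Figure D2:**
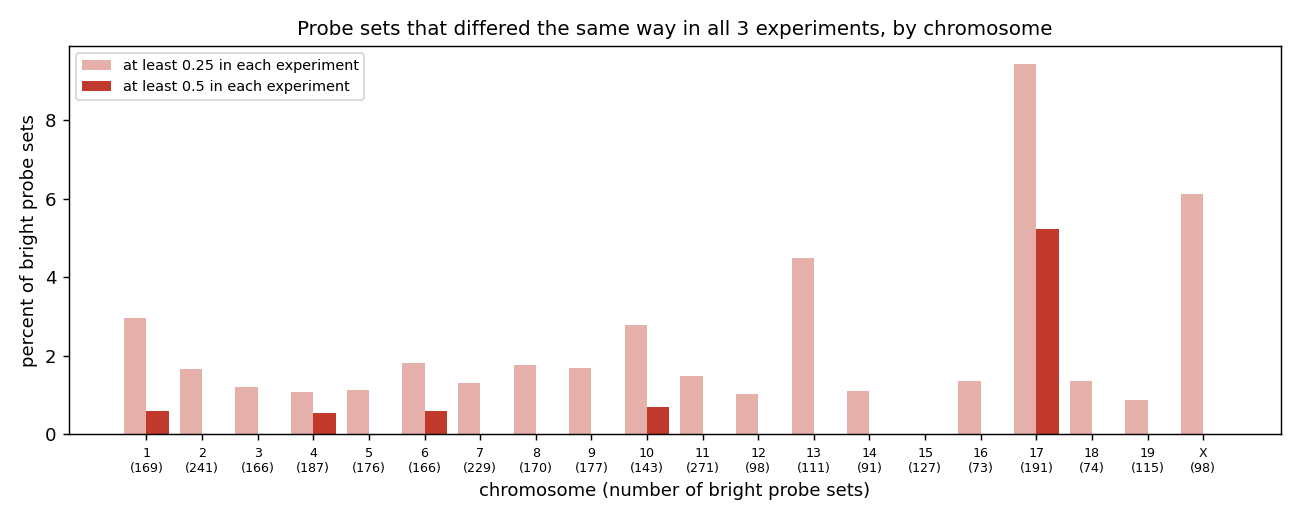
Percent of the bright probe sets on each chromosome that differed between IAb-/- and B6 in the same direction in all 3 experiments, by at least 0.25 (pale) or at least 0.5 (dark) on the log2 scale; the number of bright probe sets is in parentheses. Chromosome 17 stands at 9.42% and 5.24%, against 1.77% and 0.139% for the other chromosomes together.

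With the floor set at the noise limit in place of the 30th percentile, an alternative planned with the others, the test over the 3 experiments called 6 of 4089 probe sets (0.147%; limma, adjusted p under 0.05), 3 higher and 3 lower (0.0734% each), and all 6 were on chromosome 17, which held 230 of those tested (5.62%). They are the probe sets of Pla2g7 (adjusted p 0.0076), Pim1 (0.026), H2-M3 (0.026) and Glo1 (0.026 and 0.048) and a probe set shared by several class I genes of the H2-T region (0.034). With 1 experiment left out, none was called, whichever it was, and the lowest adjusted p was 0.14 to 0.26. Without the CIITA-/- arrays none was called either, at a lowest adjusted p of 0.091. With quantile normalization 5 of the 6 were called.

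Pim1 encodes a serine/threonine kinase that is induced by cytokine signalling through STAT factors. The dimmer of its 2 probe sets gave 7444, 6335 and 5710 in IAb-/- in experiments 1 to 3, and 3516, 1775 and 1986 in B6. In each experiment the IAb-/- array lay above both others, and the CIITA-/- arrays, at 2508, 1689 and 2153, lay below B6 in experiments 1 and 2 and above it in experiment 3. The fitted difference was 1.48 ± 0.18 (SE, n = 3 pairs), a 2.79-fold higher level, with an unadjusted p of 2.81e-04 and an adjusted p of 0.73 (limma). The other Pim1 probe set, at 19833, 16639 and 15476 in B6, went the same way by less, at 0.50, 0.54 and 0.52.

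Glo1, glyoxalase 1, removes methylglyoxal, a by-product of glycolysis. It gave 6539, 5967 and 6638 in IAb-/- on the first of 2 probe sets, against 3794, 3123 and 2815 in B6 and 3184, 2930 and 3215 in CIITA-/-. In each experiment the IAb-/- array was the highest of the 3. The fitted difference was 0.99 ± 0.13 (SE), or 1.98-fold (limma, adjusted p 0.73), and the gene's other probe set was higher too, at 5859, 3497 and 4394 against 3102, 2384 and 2502. A probe set assigned to 2 genes of the Dynlt1 family of dynein light chains was higher by 0.69, 0.94 and 0.55.

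Pla2g7 had the smallest p of all shared probe sets. It encodes a secreted phospholipase that inactivates platelet-activating factor. The gene gave 14507, 8155 and 8166 in IAb-/- and 30574, 18138 and 18321 in B6, so each IAb-/- array stood below the B6 array of its experiment. The differences in the 3 experiments were -1.08, -1.15 and -1.17, and the fitted value was -1.13 ± 0.11 (SE), a 2.19-fold lower level (limma, unadjusted p 7.85e-05, adjusted p 0.64). The CIITA-/- arrays gave 33758, 16978 and 19920, close to B6.

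Class I genes outside the classical pair went both ways. H2-M3, which presents N-formylated peptides, gave 2943, 1447 and 1492 in IAb-/- against 4701, 3577 and 3267 in B6. In experiments 2 and 3 the IAb-/- arrays were within the noise limit, so the mean level of these 2 was at least 2.01-fold lower. The fitted difference over the 3 experiments was -1.04 ± 0.15 (SE; limma, adjusted p 0.73). CIITA-/- arrays lay between the other groups, at 3354, 2314 and 2160. The gene's other probe set read within the noise limit on every array. The probe set shared by several H2-T genes gave 12368, 8822 and 8628 in IAb-/- against 19393, 16942 and 15303 in B6, and a second of the same genes was lower by 0.41, 0.67 and 0.59. H2-Q10 was higher in each experiment, at 2283, 2402 and 2443 in IAb-/- against 1508, 1964 and 2153 in B6, of which the first B6 value is within the noise limit (fitted 0.36 ± 0.13 SE; limma, unadjusted p 0.041, adjusted p 0.92). The classical class I genes H2-K1 and H2-D1, read by 2 and 3 bright probe sets with 1 symbol, went in different directions between experiments, with fitted differences between -0.05 and 0.17.

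Several further genes of chromosome 17 differed in each experiment by at least 0.25. Fkbp5, a co-chaperone that glucocorticoids induce, gave 1683, 2206 and 2601 in IAb-/-, below the 3508, 4299 and 3601 of B6, the first IAb-/- value being within the noise limit. Guca1a, known as an activator of guanylate cyclase in photoreceptors, gave 3052, 1959 and 1475 against 4341, 3148 and 2637, the last IAb-/- value being within the noise limit. Myo1f, a myosin of leukocytes, was lower by 0.75, 0.67 and 0.27. Slc35b2, a transporter of the sulfate donor into the Golgi, was lower by 0.51, 0.95 and 0.26. Wtap, a subunit of the RNA adenosine methyltransferase complex, was lower by 0.28, 0.85 and 0.28. H2-Q5 was lower by 0.28, 0.46 and 0.35, and a probe set assigned to 2 Rsph3 genes gave 2102, 2057 and 1278 against 4908, 3148 and 2951, with the IAb-/- arrays of experiments 1 and 3 within the noise limit (fitted -0.85 ± 0.17 SE with the floor at that limit). Of the 18 probe sets at 0.25, 5 were higher and 13 lower in IAb-/-, and of the 10 at 0.5, 4 were higher and 6 lower. The 4 sets with several symbols among the 14 can hold reads of near-identical copies, which cannot be told apart here.

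**Figure D3:**
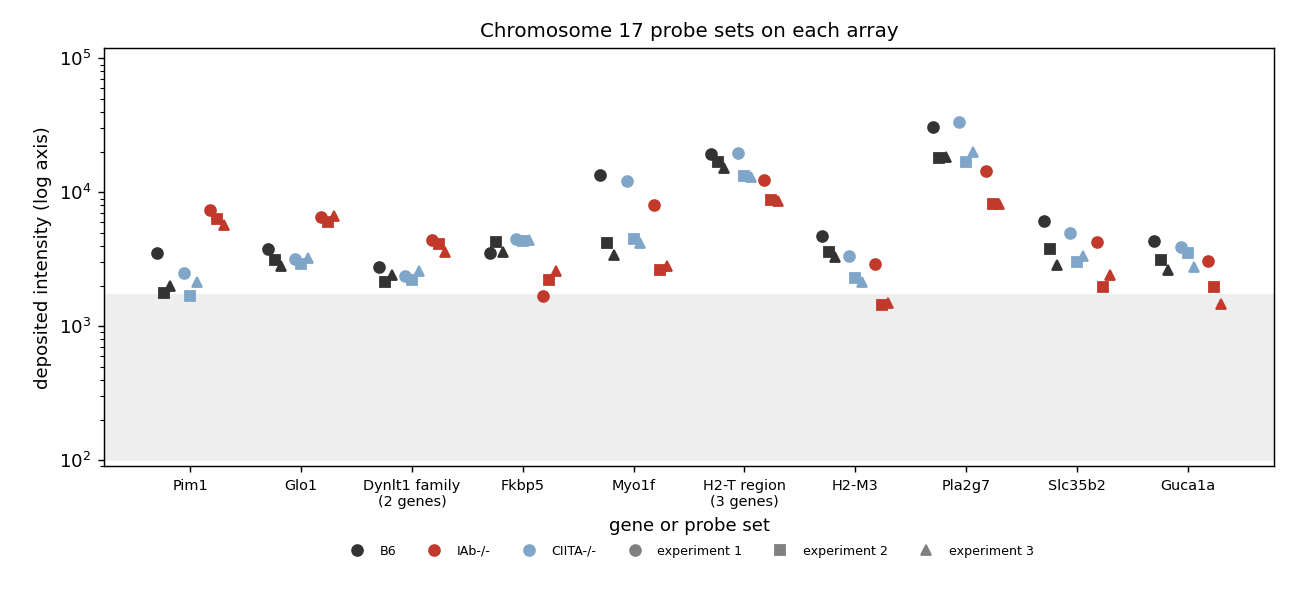
Deposited intensity (log axis) of 10 probe sets of chromosome 17 on each array, by group (colour) and experiment (marker), with the noise limit of the 6-array table, 1701, as the top of the grey band. Within each experiment, the IAb-/- array stands above B6 and CIITA-/- for Pim1, Glo1 and the Dynlt1 family and below B6 for the 7 others.

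Along the chromosome these genes lay on both sides of H2-Ab1, most of them more than 50 genes away from it. In the RefSeq order of protein-coding genes, in which 508 lie before H2-Ab1 and 550 after it, the 17 probe sets at 0.25 with a place in it ran from 479 genes before to 284 genes after H2-Ab1. Pim1 lies 105 and Glo1 96 genes before it, H2-M3 144, Pla2g7 218 and Guca1a 284 genes after it. Within 50 genes on either side, 1 of 45 bright probe sets passed at 0.5 and 3 of 45 at 0.25. Farther away 9 of 141 passed at 0.5 and 14 of 141 at 0.25. Cut into 4 stretches of nearly equal numbers of bright probe sets, the chromosome gave 4 of 46, 7 of 47, 4 of 46 and 2 of 47 at 0.25. No shared bright probe set beyond 284 genes after H2-Ab1 passed at 0.25. Most bright probe sets of the chromosome did not take part: the median size of the fitted difference was 0.13 on chromosome 17 and 0.10 elsewhere.

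**Figure D4:**
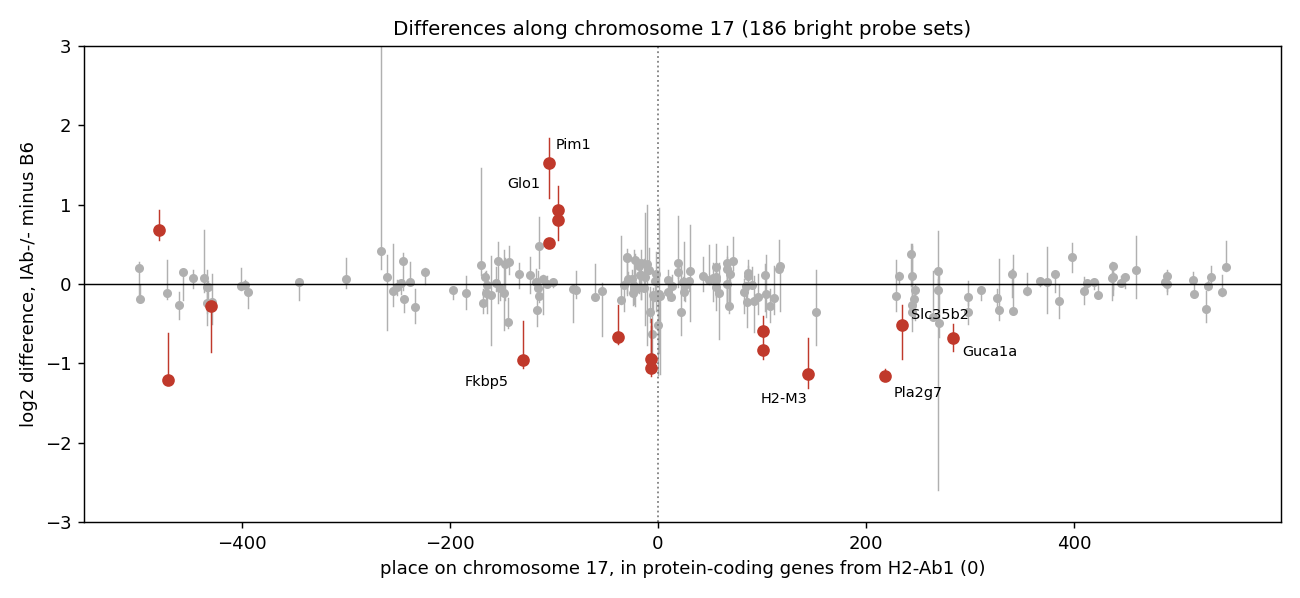
Log2 difference between IAb-/- and B6 (median of the 3 experiments as a point, lowest to highest as a line, clipped at 3) of 186 bright probe sets of chromosome 17 with a place in the gene order, by their distance from H2-Ab1 in protein-coding genes. Probe sets that differed by at least 0.25 in each experiment are red and run from 479 genes before to 284 genes after H2-Ab1, among many that did not.

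The CIITA-/- arrays give a second comparison, which shares the IAb-/- arrays with the first. With the floor at the noise limit, it called 9 of 4089 probe sets (0.22%; limma, adjusted p under 0.05). Of these, 8 were on chromosome 17 and 3 were for class II genes. The 6 probe sets taken up here were picked by their call against B6 on the same IAb-/- arrays, so their p-values against CIITA-/- are not separate support. In the fit with the floor at the noise limit, Pla2g7 was -1.19 ± 0.08 (SE) lower in IAb-/- than in CIITA-/- (adjusted p 0.0018), Pim1 1.62 ± 0.15 higher (0.0079) and Glo1 1.04 ± 0.11 and 0.89 ± 0.10 higher on its 2 probe sets (0.012 and 0.014), by limma. CIITA-/- and B6 differed at these probe sets by -0.14 to 0.06, with adjusted p from 0.80 to 0.95. The other 2 of the 6 probe sets did not pass against CIITA-/-: the H2-T probe set was at -0.62 ± 0.09 (adjusted p 0.079), and H2-M3 at -0.33 ± 0.09 (0.63), with -0.18 ± 0.09 (0.76) and -0.57 ± 0.09 (0.21) in CIITA-/- against B6. Hoxa4, on chromosome 6, was at -1.09 ± 0.12 in IAb-/- against CIITA-/- (0.016) and -0.91 ± 0.12 against B6 (0.062) in the same fit, and Fkbp5 at -0.92 ± 0.11 against CIITA-/- (0.0225) and -0.70 ± 0.11 against B6 (0.13). Taken by the same rule of 0.5 in each experiment, CIITA-/- against B6 gave 15 probe sets. On chromosome 17 these were 8 of 188 bright probe sets (4.26%), and on the other chromosomes 7 of 2868 (0.244%). Of the 8, 7 were for class II genes only. IAb-/- against B6 gave 10 of 191 on chromosome 17 (5.24%), of which 1 was for class II genes only.

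Away from chromosome 17, 4 probe sets passed the rule of 0.5 in each experiment. Fn1, the matrix protein fibronectin, gave 5405, 6061 and 4148 in IAb-/- and 3650, 2272 and 2789 in B6, a fitted difference of 0.85 ± 0.29 (SE; limma, adjusted p 0.92), and the CIITA-/- arrays were also above B6 in each experiment, at 6651, 3565 and 6791. Errfi1, an inhibitor of the EGF receptor, gave 6493, 4934 and 3086 against 1532, 3395 and 475, with B6 within the noise limit in experiments 1 and 3 (fitted 0.99 ± 0.30 SE with the floor at that limit), and its other probe set went the opposite way in experiment 1 and read within the noise limit in the 2 others. Tyms-ps, a thymidylate synthase pseudogene, was higher from readings of B6 that were negative in experiments 2 and 3, and gave 1.32 ± 0.43 (SE) with the floor at the noise limit. Its other probe set read within the noise limit on the B6 and IAb-/- arrays. For the Errfi1 and Tyms-ps probe sets that passed, the CIITA-/- arrays also lay above B6 in each experiment. They gave 2410, 3652 and 3784 for Errfi1 and 5439, 9087 and 1723 for Tyms-ps. Hoxa4 was lower on 1 probe set, at 4601, 5256 and 4325 against 7084, 9921 and 9858 in B6 (fitted -0.91 ± 0.15 SE, adjusted p 0.73), while its 3 other probe sets read within the noise limit.

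Probe sets present only on the array of experiments 2 and 3 add genes measured on 2 arrays of each group. Lcn2, a siderophore-binding protein of neutrophils and activated myeloid cells, gave 6575 and 4726 in IAb-/- against 1970 and 1704 in B6 and 2595 and 2955 in CIITA-/-. The difference was 1.61 ± 0.22 (SE, n = 2; limma, adjusted p 0.41), and both IAb-/- arrays lay above the 4 others. Of 9 neutrophil markers tested on these 6 arrays, Lcn2 among them, 2 were higher and 7 lower in IAb-/-, with a median of -0.05 and none called. Over the 3 experiments 5 were higher and 3 lower. The summed intensity of the 9 markers on the 6 arrays was 16485 and 13644 in IAb-/- against 13357 and 11300 in B6. These sums hold Lcn2 itself, whose values differed between the groups by more than the sums did in each experiment. Without Lcn2, the other markers therefore summed lower in IAb-/- than in B6 in both experiments. Of the 9 markers, 4 were above the noise limit on some array. The part of other cells in the Lcn2 reading was not tested. Tnfaip2, induced by TNF, gave 2206 and 2352 against 1182 and 1156 in B6, which were within the noise limit, so that it was at least 1.34-fold higher. Gfer, a sulfhydryl oxidase of mitochondria, gave 3159 and 4750 against 1586 and 1214 in B6, both within the noise limit. Its mean was at least 2.32-fold higher, and the log2 differences were 0.99 and 1.97 in experiments 2 and 3. Klf17 and Nucks1 were also among the 5 bright genes with the smallest p on the higher side. Klf17 was within the noise limit in B6 and at least 1.28-fold higher, and Nucks1 was at 0.50 ± 0.18 (SE).

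On the lower side of the same table stood Ergic1, a membrane protein between endoplasmic reticulum and Golgi. It gave 624 and 1360 in IAb-/-, within the noise limit, against 4077 and 3631 in B6 and 3818 and 2901 in CIITA-/-, so its level was at least 2.27-fold lower (fitted -2.06 ± 0.41 SE; limma, adjusted p 0.65). Pdcd6, a calcium-binding protein of cell death and vesicle traffic, gave 1967 and 1907 against 3247 and 3507. Tmem168 was lower by 0.56 in the fit (limma, adjusted p 0.87). Cebpzos and Cdh3 were within the noise limit in IAb-/- and at least 1.14- and 1.27-fold lower (adjusted p 0.94 and 1). Gfer, Ergic1 and Cebpzos lie on chromosome 17, 249 and 167 genes before and 478 genes after H2-Ab1, and were thus 3 of these 10 genes. Chromosome 17 held 5.69% of the bright shared probe sets, and its share among those of this table only was not taken.

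Of 19 genes of chemokines and their receptors tested over the 3 experiments, 16 were higher and 3 lower in IAb-/-, against 3199 and 3029 of all 6241 genes. In the list 7 were higher in every experiment and none lower in every experiment, against 752 and 748 of all genes, and 6 had an unadjusted p under 0.05, against 294 of all 6241 genes. None passed the adjusted test (limma). The median was 0.27, against 0.01 over all genes, and lay at 0.40, 0.48 and 0.17 in experiments 1 to 3. In the 6-array table the median was 0.29, and 0.11 without IAb-/- array 2 but 0.53 without IAb-/- array 3. The part of the unequal bright end of these arrays in the median was not tested.

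Within that list Ccl2, which attracts monocytes, gave 4862, 2326 and 1713 in IAb-/- and 1939, 443 and 1257 in B6, the latter within the noise limit on every array. On the 6 arrays it was at least 1.19-fold higher (adjusted p 1, limma), and the CIITA-/- arrays, at 5145, 1448 and 2384, also lay above B6 in each experiment. Ccr1, a receptor for CC chemokines, gave 11620, 6207 and 6486 against 10326, 3899 and 3623, with CIITA-/- in between in experiments 2 and 3. Ccl9 was higher by 0.48, 0.50 and 0.17 and Ccl6 by 0.13, 0.81 and 0.09, both of them CC chemokines that myeloid cells make. Among inflammatory mediators, Il1a gave 2762, 2178 and 2216 against 2491, 1325 and 907. B6 was within the noise limit in experiments 2 and 3, where the mean level of Il1a was at least 1.29-fold higher in IAb-/-. Il6 was higher by 0.46, 0.27 and 0.28. That list of 18 genes had 10 higher and 8 lower members, a median of 0.18 and no member called.

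Of 14 genes of cholesterol synthesis and uptake tested, 9 were lower and 5 higher, against 3029 lower and 3199 higher over all 6241 genes, and none was called (limma). In the list 6 were lower in every experiment and none higher in every experiment, against 748 and 752 over all genes. The median was -0.18, with -0.19, -0.16 and -0.15 in the 3 experiments. Only 7 of the 14 genes were bright, and the median of these 7 was -0.16. Idi1, the isomerase that makes dimethylallyl diphosphate, gave 2403, 1745 and 1277 in IAb-/- and 4515, 2337 and 3419 in B6, lower in each experiment, with IAb-/- within the noise limit in experiment 3 (fitted -0.92 ± 0.22 SE; unadjusted p 0.0064, adjusted p 0.92), and CIITA-/- gave 3316, 2382 and 1826. Sqle, squalene epoxidase, was lower by 0.35, 0.25 and 0.13, and Hmgcs1, the synthase that supplies HMG-CoA, by 0.42, 0.35 and 0.02. Without IAb-/- array 3 the list's median in the 6-array table was -0.41, and without IAb-/- array 2 it was -0.10.

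Antigen processing outside the class II genes showed small differences. The lysosomal list had a median of 0.03 over 24 genes, 13 higher and 11 lower, with none called, and 0.12 over 28 genes on the 6 arrays alone, 24 higher and 4 lower. Its cathepsins D and B, proteases of the endosome, were higher in each experiment, Ctsd by 0.45, 0.27 and 0.39 and Ctsb by 0.21, 0.49 and 0.31, as was Psap, the saposin precursor, by 0.44, 0.48 and 0.13, all with adjusted p of 0.92 (limma). In the class I list, 9 of 17 genes were higher and 8 lower, the median was 0.00 and none was called, and on the 6 arrays alone 5 were higher and 12 lower, at a median of -0.07. Tap1, a subunit of the peptide transporter, was lower by 0.14, 0.16 and 0.21, and Cd1d1, which presents lipids, by 0.04, 0.50 and 0.45. Of the 100 measured protein-coding genes nearest to H2-Ab1 in gene order, 50 on either side, 95 were tested over the 3 experiments, with 45 higher and 49 lower, 7 at an unadjusted p under 0.05, none called and a median of -0.03.

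**Figure D5:**
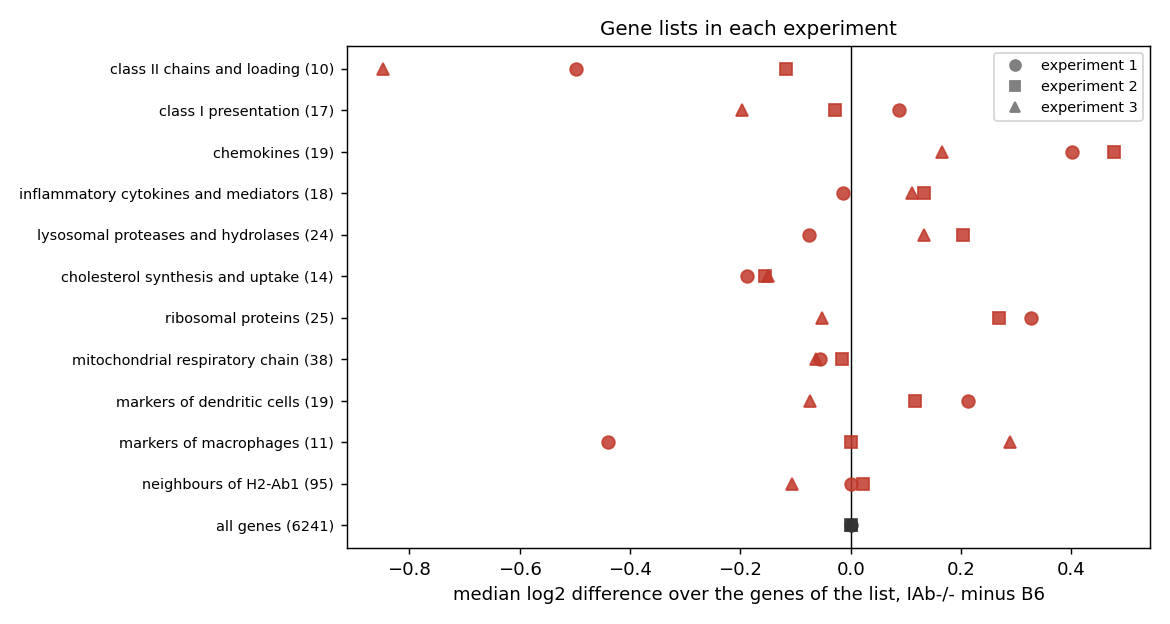
Median log2 difference between IAb-/- and B6 over the genes of 11 lists and over all genes, in each experiment (marker), with the number of genes tested over the 3 experiments in parentheses. The class II, cholesterol and mitochondrial lists lie below 0 in all 3 experiments, the last by only 0.02 to 0.06, and the chemokines lie above 0. Ribosomal proteins, dendritic cell markers and lysosomal genes change sides.

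The arrays carried the markers of dendritic cells in both groups. Itgax, which encodes CD11c, gave 41912, 44986 and 37111 in IAb-/- and 36158, 38206 and 33205 in B6, and Cd83, a maturation marker, 39669, 45044 and 43615 against 34398, 43154 and 43225. In experiments 2 and 3, 18 of 19 dendritic cell markers were above the noise limit, and their summed intensity was 1056948 and 771220 in IAb-/- against 864066 and 843426 in B6. Of the other cell types' markers, 4 of 10 for macrophages, 4 of 9 for neutrophils, 3 of 5 for B cells, 2 of 6 for fibroblasts and 1 of 2 for erythroid cells were above the limit on some array, and 0 of 4 for T cells, 0 of 3 for NK cells and 0 of 5 for mast cells and basophils. The summed macrophage markers were 22364 and 19645 in IAb-/- against 20635 and 16573 in B6. The neutrophil markers summed to 16485 and 13644 against 13357 and 11300, of which Lcn2 alone gave 6575 and 4726 against 1970 and 1704. Without Lcn2 the neutrophil markers summed lower in IAb-/- than in B6 in both experiments. The fibroblast markers, which include Fn1, summed to 13791 and 10588 against 8561 and 9218. Their part in the differences above was not tested. In bulk RNA such as this, more cells of a type and more RNA per cell cannot be told apart.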

How the data were processed

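The deposited intensity values, 1 per probe set and array, were used as the authors gave them. The sources used here do not give how they were computed from the scans. The deposited arrays share a trimmed mean and keep negative values. Intensities were floored at the 30th percentile of each table (123.5 with 6 arrays, 93.2 with 3) and put on the log2 scale, and probe sets above the floor on at least 2 arrays were tested with limma 3.58.1 in R 4.3.3 (lmFit and eBayes, Benjamini-Hochberg over all probe sets tested). The 6-array fit held the 3 groups, and the 9-array fit held the shared probe sets with the experiment as a block. Both fits were tested on simulated data. Fold changes are on the floored scale, and those of readings within the noise limit depend on the floor. The 66 control probe sets of each table were left out. Symbols come from GEO's platform annotation: with 6 arrays, 10833 probe sets have 1 symbol, 396 several and 1193 none, and 89% were placed on a chromosome through RefSeq GRCm38.p6, used for names, chromosome and gene order, and for the promoter sequences.

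Genes were named by rule: the class II list; the 10 per direction with the smallest p among those past 0.5 in each experiment; the 5 per direction with the smallest p among bright probe sets of the 6-array table only; every call; up to 4 per list; and other probe sets of those genes. Probe sets of chromosome 17 at 0.25, H2-K1 and H2-D1, and those with several symbols, were added after their values were seen. The members and the 30 gene lists were chosen with earlier results of these data known. The 1 CIITA-/- array without a number in its title was given 2, the number left. In the 6-array table, deviations of same-numbered arrays from their group means correlated at 0.08 (B6 and IAb-/-), 0.05 (B6 and CIITA-/-) and 0.21 (CIITA-/- and IAb-/-) over 9312 probe sets. Over the 4247 bright ones the coefficients were 0.21, 0.19 and 0.29 in the same order. The number of arrays limits the precision.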

Additional observations from a re-analysis of the deposited data

How the results depend on the processing

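The count of 1 called probe set in the 6-array table was 3 with quantile normalization, 5 without a filter, 0 with the floor at the noise limit, 0 with only the B6 and IAb-/- arrays and 0 with any B6 or IAb-/- array left out. With the experiment as a replicate block it was 0, and Zfp1 had an adjusted p of 0.33. The calls in that table lay within the noise limit. Over the 3 experiments the count was 0 under every alternative run but the noise-limit floor, which gave 6; there the fit without the replicate block gave 7, of which 6 were on chromosome 17. At a minimum difference of 0.25 the rule of agreement gave 33 higher and 39 lower, 18 of them on chromosome 17, and at 1 it gave 1, 1 and 2. With an experiment left out, a setting added after seeing the data, it gave 20 to 40 higher and 22 to 25 lower. Of these, 12 to 14 were on chromosome 17, or 18.5% to 33.3%, against 71.4% with all 3 experiments. With an array left out of the 6-array table, uncalled differences lay on both sides of 0, from -0.17 to 0.44 for Cd74, -0.45 to 0.080 for Hmgcs1 (both turned without IAb-/- array 2), -0.45 to 0.063 for H2-DMa and -0.17 to 0.15 for H2-Ob (both turned without IAb-/- array 3, H2-Ob also without B6 array 3). With an experiment left out, they ran from -0.25 to 0.63 for H2-Oa (turned without experiment 2), -0.50 to 0.41 for H2-Aa (without 2 or 3), -0.60 to 0.20 for H2-Ea (without experiment 3) and -3.37 to 0.55 for Zfp1 (without 2 or 3). The cause was not tested. Signal over background limits the rest: 61.5% of probe sets were within noise in both groups.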

Other observations

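Ribosomal protein genes were higher on balance, with 23 of 25 tested over the 3 experiments higher and 2 lower, a median of 0.16 and none called (limma), but the median was 0.33 and 0.27 in experiments 1 and 2 and -0.05 in experiment 3. Rplp0 gave 39253, 184166 and 124285 in IAb-/- against 31298, 136653 and 128800 in B6, in the order in which actin differed between these arrays. Genes of the mitochondrial respiratory chain were lower in 25 of 38, at a median of -0.03. Interferon-induced genes had a median of 0.04 over 16 genes. Irf1, an interferon-induced transcription factor, gave 4027, 3565 and 2944 in IAb-/- and 4640, 5299 and 5483 in B6, lower in each experiment (fitted -0.56 ± 0.26 SE, limma adjusted p 0.92). Mcm5, a subunit of the replicative helicase, gave 3132, 1274 and 895 against 4166, 1807 and 1946. IAb-/- was within the noise limit in experiments 2 and 3, and its mean there was at least 1.10-fold lower. Of the 28 proliferation genes tested, 20 were higher, against 3199 of all 6241 genes, at a median of 0.17. Only 5 of the 28 were bright, and the median of these was 0.006. The median of the whole list lay at 0.20, 0.05 and 0.04 in experiments 1 to 3, and none was called (limma). Fcgr1, the high-affinity receptor for IgG, was higher by 0.31, 0.33 and 0.62. Itgam, which encodes CD11b, was 0.48 lower in experiment 1. In the mean of experiments 2 and 3, where B6 was within the noise limit, Itgam was at least 1.82-fold higher.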
